A study of Mus musculus with 12 samples.

Results

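The Ly49 receptors are lectin-like proteins on the surface of mouse natural killer (NK) cells, lymphocytes that kill target cells and secrete interferon gamma. Their genes are named Klra, and the 9 described here are Klra1 (Ly49A), Klra3 (Ly49C), Klra4 (Ly49D), Klra5 (Ly49E), Klra6 (Ly49F), Klra7 (Ly49G), Klra8 (Ly49H), Klra9 (Ly49I) and Klra10 (Ly49J). They were taken from the table by gene symbol and are 9 of the 55487 features in the table. All 9 passed the filter on low values, as did 12364 features in all.

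RNA was sequenced in 12 libraries of NK cells from mice of the strain B6.129S4-Ifngtm3.1Lky/J, with the genotype mut/mut, in which yellow fluorescent protein (YFP) reports on expression of Ifng, the interferon gamma gene. The cells of all 3 groups were primed with IL-15, a cytokine that NK cells need (HD IL-15 in the labels), and each group had 4 libraries, named f2, m2, m3 and m4. The first group was unstimulated. The other groups received anti-NK1.1, an antibody to an activating NK cell receptor, for 6 h. They were separated by the reporter into YFP- and YFP+ cells. A rise, fall or move named below is a difference between groups, not a change followed over time in the same cells. The labels do not say whether libraries that share a name came from the same mouse, and the age of the mice is not given in the sources used here. The p-values measure the spread between these libraries.

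Many, but not all, inhibitory Ly49 receptors bind classical MHC class I molecules. Inhibitory Ly49 receptors carry a cytoplasmic motif, the ITIM, that recruits the phosphatase SHP-1 and restrains the cell. Activating Ly49 receptors lack the motif and signal through the adaptor DAP12. Klra4 and Klra8 are the activating members here, and Klra8 is known for recognising the m157 protein of mouse cytomegalovirus. Each NK cell expresses only some of the Ly49 genes, so that in bulk RNA fewer expressing cells and less RNA per cell cannot be told apart.

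The first 16 codons of each coding sequence are shown because they separate the classes. Capitals mark codons 6 to 11 where they match the ITIM pattern, which was searched in the first 40 codons. The sequences are those of the GENCODE M21 transcripts on GRCm38, written 5′ to 3′.
Klra4: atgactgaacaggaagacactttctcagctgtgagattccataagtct
Klra8: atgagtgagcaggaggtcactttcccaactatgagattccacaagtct
Klra1: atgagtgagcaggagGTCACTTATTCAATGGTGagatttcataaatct
Klra3: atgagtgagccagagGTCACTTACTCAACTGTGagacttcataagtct
Klra5: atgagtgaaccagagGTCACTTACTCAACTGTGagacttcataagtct
Klra6: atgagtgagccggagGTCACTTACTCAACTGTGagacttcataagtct
Klra7: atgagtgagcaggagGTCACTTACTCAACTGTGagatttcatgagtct
Klra9: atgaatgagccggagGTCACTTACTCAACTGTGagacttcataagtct
Klra10: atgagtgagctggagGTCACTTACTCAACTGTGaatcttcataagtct
The pattern was found in 7 of 7 inhibitory members and in 0 of 2 activating members.

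The 9 genes lie on the minus strand of chromosome 6 (GRCm38) between positions 129898996 and 130386874, a span of 488 kb. From the lowest coordinate the order is Klra5, Klra6, Klra4, Klra8, Klra9, Klra7, Klra10, Klra3 and Klra1, with 3 Klra pseudogenes among them. Over the 36 pairs of members, coding sequence identity ran from 75.6% (Klra7 and Klra8) to 96.9% (Klra9 and Klra10). Klra3 and Klra9 were 95.9% identical, and the activating pair, Klra4 and Klra8, 78.2%. The map of coding identity shows Klra3, Klra9 and Klra10 as a close set, each pair at 95.9% or more. The activating gene Klra8 was 90.5% to 91.9% identical to these genes, and Klra6 91.1% to 91.7%. The other activating gene, Klra4, was closest to Klra1 at 88.5%.

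**Figure D1:**
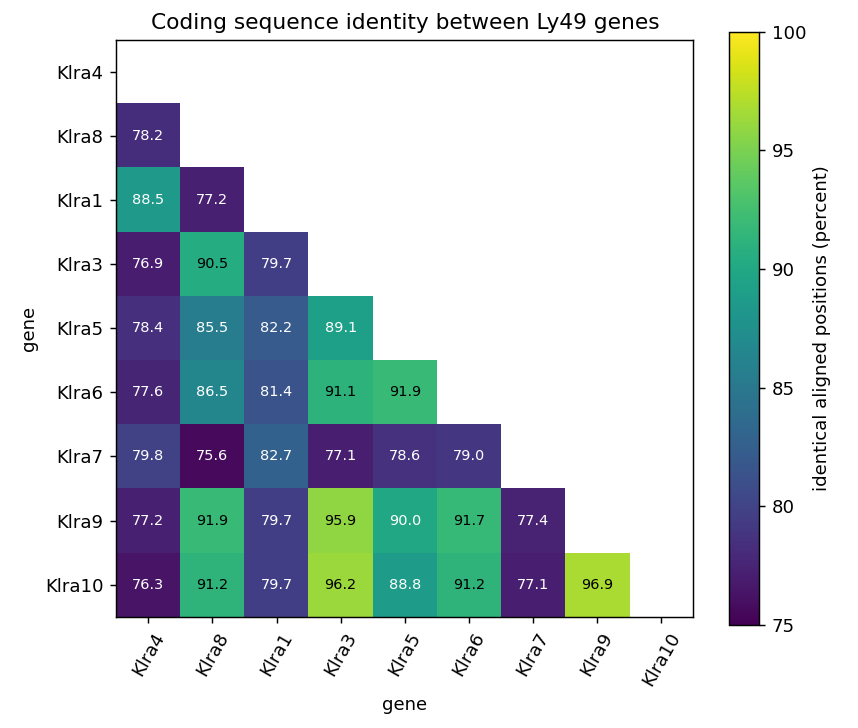
Coding sequence identity (percent of aligned positions that match, colour scale from 75 to 100) for each of the 36 pairs of Ly49 genes, with activating genes first. Klra3, Klra9 and Klra10 are 95.9% to 96.9% identical to each other, and Klra4 and Klra8 are 78.2% identical.

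Reads from such similar genes can be hard to place, so shared stretches were counted in the main transcript of each member. No stretch of 150 bases, the length of a read, was identical to another annotated transcript's in 8 of the members. In Klra8, 62 of 1029 such windows (6.03%) also occurred in the pseudogene Klra14-ps. Identical stretches of 50 bases were more common, at 39.8% of windows in Klra10, 33.1% in Klra8, 32.4% in Klra9, 21.5% in Klra3 and 14.7% in Klra7. They covered between 0.732% and 4.68% of windows in Klra1, Klra4, Klra5 and Klra6. How reads that fit several genes were counted is not given in the sources used here. The values of Klra3, Klra8, Klra9 and Klra10 are therefore uncertain to that extent, as are those of Klra7, whose shared windows lie in Klra13-ps.

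Library totals ran from 32143536 to 54242394 reads, so that 3 reads, taken as the lowest level that could be shown, stood for 0.0553 to 0.0933 CPM (reads scaled to the library total); this covers counting error only. Ribosomal RNA-like features took a mean of 30.7% of reads in unstimulated, 21.2% in YFP- and 20.7% in YFP+ libraries. Klrb1c, which encodes NK1.1, was at 290 to 327 CPM in unstimulated, 57.6 to 86.6 CPM in YFP- and 3.70 to 8.97 CPM in YFP+ libraries, and Ifng at 3.66 to 4.19, 36.6 to 54.5 and 304 to 343 CPM. All 7 NK cell markers were present, with summed levels of 10621 to 13350, 7236 to 9877 and 6914 to 11110 CPM, most of it from Gzma and Prf1. In unstimulated, YFP- and YFP+ libraries Prf1 rose, with means of 2559, 3424 and 4010 CPM, while Gzma had 8603, 4483 and 4412 CPM. The other NK cell markers were lower in YFP+ than in unstimulated cells. Their means in that order were 247, 222 and 123 CPM for Ncr1 and 108, 70.5 and 40.7 CPM for Eomes. Klrd1 had 385, 270 and 165 CPM, and Itga2 7.76, 3.97 and 3.20 CPM. The 7 T cell markers summed to 45.9 to 106, 40.4 to 62.9 and 23.5 to 47.0 CPM, nearly all from Cd3g and Cd3d, while Cd4, Cd8a and Cd8b1 stayed at or below 0.193 CPM. The 5 myeloid markers summed to 52.9 to 60.2, 27.3 to 44.4 and 14.7 to 24.0 CPM, mostly Cd68, with Adgre1 at or below 0.0308 CPM. The 4 B cell markers summed to at most 4.19 CPM. The 4 markers of plasmacytoid dendritic cells summed to 21.6 to 28.4, 19.6 to 23.3 and 25.0 to 31.1 CPM, nearly all from Bst2, with Siglech at or below 0.0608 CPM. The 4 genes marking type 1 innate lymphoid cells summed to 76.7 to 96.1, 128 to 170 and 30.9 to 70.6 CPM. The higher YFP- sum came from Cxcr6, with means of 50.6, 119 and 44.2 CPM, and Cd200r1, with 5.19, 17.8 and 3.44 CPM. Itga1 was instead lower in stimulated cells, with means of 26.4, 15.9 and 9.10 CPM. Il7r stayed at or below 2.47 CPM. The part of these differences in the results below was not tested.

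Counts per kilobase of exon allow members to be compared with each other, as far as the annotated exons and the placing of shared reads allow. The annotated exons ran from 823 bases in Klra10, of which 798 are coding, to 1764 bases in Klra1. Their part in the order below was not tested. In unstimulated cells Klra7 was highest, at 312 ± 36.5 CPM per kb (SD, n = 4), followed by Klra4 at 236 ± 30.6 and Klra8 at 113 ± 15.1. Klra5 (66.8), Klra9 (65.4) and Klra3 (60.1 CPM per kb) formed a middle set in which neighbours overlapped. Klra1 (40.1), Klra6 (9.17) and Klra10 (2.10 CPM per kb) were lower, each below every library of the one above it. Klra10, the lowest, rested on 55 to 152 reads per library, and the other 8 members on 107 to 20817.

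In YFP- cells the order of these means was the same, but Klra7 (280 CPM per kb) and Klra4 (256) now overlapped, as did each neighbouring pair from Klra8 (121) through Klra5 (104) and Klra9 (97.3) to Klra3 (96.9). In YFP+ cells the mean of Klra3, at 120 ± 22.8 CPM per kb, came next after Klra7 at 169 ± 16.6 and Klra4 at 150 ± 12.7, and its range overlapped that of Klra4 and of Klra5 (104). Klra8 fell to the fifth place at 63.7 CPM per kb, next to Klra9 at 59.6, and Klra1 stood at 24.0. Klra6 (3.62) and Klra10 (2.66 CPM per kb) overlapped in these cells.

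Stimulated YFP- cells were first compared with unstimulated cells. The labels give neither a time nor a separation by the reporter for the unstimulated cells. The antibody, time in culture and selection by the reporter therefore cannot be told apart here, nor in YFP+ against unstimulated cells. Klra3, Klra5 and Klra9, all inhibitory, rose, and no member fell past the threshold, although Klra7 did under other scalings. By limma with Benjamini-Hochberg adjustment over all genes, 3 of 9 members were higher and 0 lower at an adjusted p under 0.05, where 30.2% of all tested genes were higher and 20.9% lower. The share of members that rose was therefore near that of all genes. At an unadjusted p under 0.05 the count was 4 higher, the additional gene being Klra10, and 0 lower. The median difference of the members was 0.29 on the log2 scale, against 0.14 over all tested genes. Under the 4 other scalings these medians were 0.11 to 0.18 for the members and -0.05 to 0.02 for all genes.

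Klra3, which encodes Ly49C, had 67.3, 76.3, 70.3 and 84.0 CPM in unstimulated libraries f2, m2, m3 and m4, and 115, 119, 109 and 136 CPM in the YFP- libraries in that order. The groups did not overlap, and the log2 difference was 0.69 (SE 0.14, limma adjusted p = 0.000989), or 1.61-fold. Klra5, which encodes Ly49E, had 101, 103, 82.4 and 87.3 CPM in unstimulated libraries and 179, 144, 121 and 139 CPM in YFP- libraries. Every YFP- library was above every unstimulated one, by 0.63 in the mean (SE 0.14, limma adjusted p = 0.00217). Klra9, which encodes Ly49I, had 82.0, 90.6, 74.7 and 87.4 CPM against 128, 141, 109 and 119 CPM. These groups too were separate, with a log2 difference of 0.57 (SE 0.14, limma adjusted p = 0.00378). Separation was common in this comparison, where 52.7% of all tested genes did not overlap.

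The activating genes stayed close to their unstimulated levels. Klra4 had 289, 336, 245 and 307 CPM in unstimulated libraries f2, m2, m3 and m4, and 328, 347, 280 and 320 CPM in YFP- libraries. The groups overlapped, with a log2 difference of 0.12 (SE 0.12, limma adjusted p = 0.42) that was negative under 3 of the 4 other scalings of the libraries tried. Klra8 had 132, 158, 119 and 122 CPM against 138, 171, 139 and 123 CPM. Its difference of 0.10 (SE 0.14, limma adjusted p = 0.57) was negative under all 4 other scalings.

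Among the other inhibitory members the limma difference of Klra1 was 0.21 (SE 0.15, adjusted p = 0.24), and it was negative under quantile normalization. That of Klra6 was 0.29 (SE 0.20, limma adjusted p = 0.23) and that of Klra10 0.47 (SE 0.21, limma adjusted p = 0.074). Without an intensity trend in the limma fit Klra10 passed the threshold, at an adjusted p of 0.038. Klra7, the most abundant member, differed by -0.15 (SE 0.12, limma adjusted p = 0.31). It was lower past the threshold under all 4 other scalings, by -0.35 to -0.27 with adjusted p between 0.012 and 0.040.

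**Figure D2:**
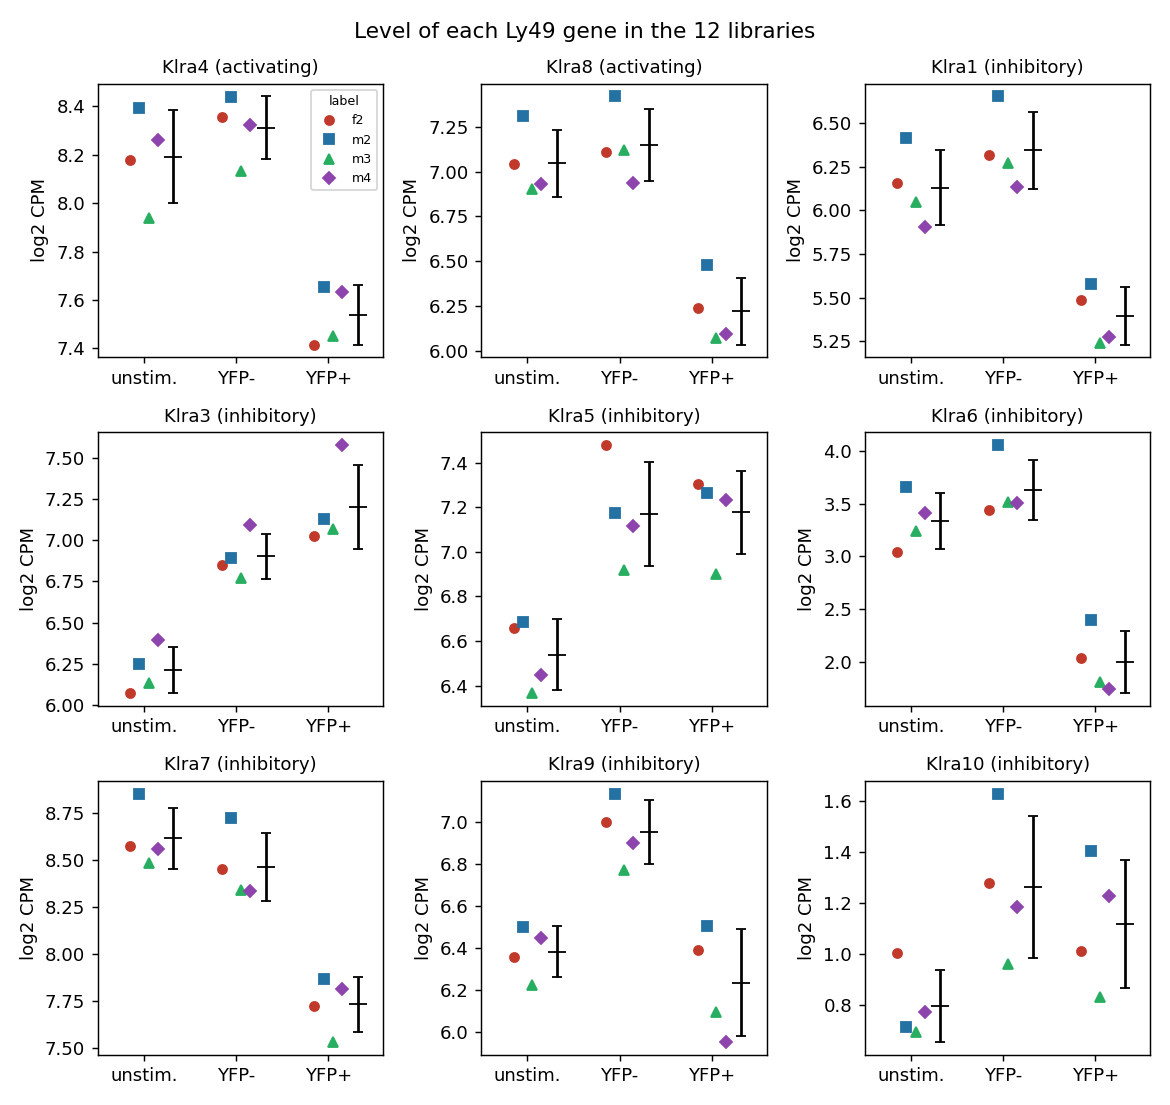
Level of each Ly49 gene (log2 CPM, a separate vertical scale per gene) in unstimulated, YFP- and YFP+ libraries; each symbol is a library, and black marks give the mean and SD of 4. Klra3 is higher in every stimulated than in every unstimulated library, while Klra4, Klra8, Klra1, Klra6 and Klra7 are lower in every YFP+ library than in every other.

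YFP+ cells were then compared with YFP- cells, which received the same stimulation and differ in whether the interferon gamma reporter was on. Both activating members were lower in YFP+ cells, and so were the inhibitory members Klra1, Klra6, Klra7 and Klra9. The count was 6 of 9 members lower and 0 higher, where 18.5% of all tested genes were lower and 3.28% higher. The median difference of the members was -0.73 on the log2 scale, against -0.19 over all tested genes, and under the 4 other scalings -0.74 to -0.47 for the members and -0.20 to 0.07 for all genes. At an unadjusted p under 0.05, 1 member, Klra3, was higher. Scaling matters for the background: with each library centred on its median, 1505 genes were higher and 1491 lower in place of 405 and 2286, with quantile normalization 1163 and 1430, and with trimmed-mean (TMM) scaling 1172 and 1679. The 6 falls passed the threshold under each of these scalings and under every other alternative tried.

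Klra4 had 171, 201.3, 175 and 199 CPM in YFP+ libraries f2, m2, m3 and m4, against the YFP- range of 280 to 347 CPM. It fell by 0.77 on the log2 scale (SE 0.12, limma adjusted p = 0.000498), or 1.71-fold. Klra8 had 75.4, 89.2, 67.3 and 68.3 CPM, against 123 to 171 CPM in YFP- libraries. It fell by 0.93 (SE 0.14, limma adjusted p = 0.000441), or 1.90-fold. For both activating genes the lowest YFP- library was above the highest YFP+ library. Over all tested genes, 22.1% did not overlap between these groups.

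Klra6, which encodes Ly49F, showed the largest fall of the members. It had 10.8, 16.7, 11.5 and 11.4 CPM in YFP- libraries f2, m2, m3 and m4, and 4.09, 5.25, 3.48 and 3.33 CPM in YFP+ libraries. The fall of 1.64 on the log2 scale (SE 0.20, limma adjusted p = 9.2e-05) was 3.12-fold. Klra1, which encodes Ly49A, had 79.7, 101, 77.3 and 70.2 CPM against 44.8, 47.9, 37.8 and 38.8 CPM, and fell by 0.95 (SE 0.15, limma adjusted p = 0.000544). Klra7, which encodes Ly49G, had 351, 422, 324 and 322 CPM against 211, 233, 185 and 225 CPM, and fell by 0.73 (SE 0.12, limma adjusted p = 0.000991). In all 3 genes, as in 22.1% of all tested genes, the YFP- and YFP+ libraries were fully separated.

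Klra9, which was higher in YFP- than in unstimulated cells, had 83.8, 90.9, 68.4 and 61.9 CPM in YFP+ libraries. It was lower there than in YFP- cells by 0.72 (SE 0.14, limma adjusted p = 0.00244). Its YFP+ range overlapped the unstimulated range of 74.7 to 90.6 CPM. Its near-copy Klra3 had 130, 140, 134 and 191 CPM in YFP+ libraries, overlapping the YFP- range of 109 to 136 CPM. The difference of Klra3 was 0.30 (SE 0.14, limma adjusted p = 0.14), positive in 4 of 4 labels, and it passed the threshold when libraries were centred on their median (0.56, adjusted p = 0.021) or TMM-scaled (0.49, adjusted p = 0.028). Klra5 had 158, 154, 120 and 151 CPM in YFP+ libraries and differed from YFP- cells by 0.01 (SE 0.14, limma adjusted p = 0.98), with a sign that changed between alternatives. Klra10 differed by -0.14 (SE 0.21, limma adjusted p = 0.66) and was positive under 3 of the 4 other scalings.

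**Figure D3:**
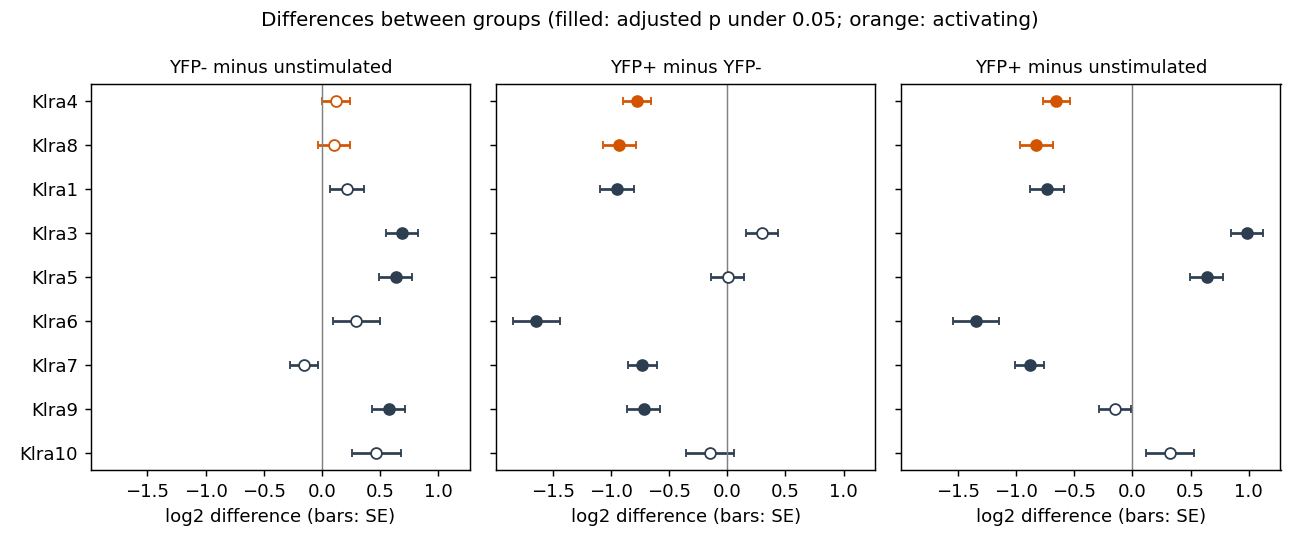
Log2 difference of each Ly49 gene between groups with its standard error from the limma fit; filled symbols have an adjusted p under 0.05 and orange marks the activating Klra4 and Klra8. In the comparison of YFP+ with YFP- cells 6 genes lie below 0 and are filled, from -1.64 for Klra6 to -0.72 for Klra9.

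Measured against unstimulated cells, YFP+ cells had more Klra3 and Klra5 and less of 5 other members. Here 2 of 9 members were higher and 5 lower, where 27.5% of all tested genes were higher and 33.3% lower, and the median of the members was -0.65 against -0.03 over all genes. This comparison shares its libraries with the preceding ones. Klra3 rose by 0.99 on the log2 scale (SE 0.14, limma adjusted p = 3.0e-05), or 1.98-fold, and Klra5 by 0.64 (SE 0.14, adjusted p = 0.0014). The falls were 1.34 for Klra6, 0.88 for Klra7, 0.82 for Klra8, 0.74 for Klra1 and 0.65 for Klra4, given as log2 values, with limma adjusted p between 3.2e-05 and 0.000672. The groups did not overlap for any of these 7 genes, against 54.7% of all tested genes that did not overlap. Klra9 differed by -0.15 (SE 0.14, limma adjusted p = 0.38) and Klra10 by 0.32 (SE 0.21, adjusted p = 0.19). Klra9 passed as lower under quantile normalization (-0.30, adjusted p = 0.030) and with ribosomal features left out of the totals (-0.34, adjusted p = 0.018), and Klra10 as higher under quantile normalization (0.67, adjusted p = 0.0084).

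Summed over the 9 genes, the family stood at 1156 ± 124 CPM in unstimulated, 1303 ± 126 in YFP- and 894 ± 76.3 CPM in YFP+ libraries (SD, n = 4). The activating sum was 427 ± 53.2, 461 ± 42.4 and 261 ± 22.2 CPM, and the inhibitory sum 728 ± 72.3, 842 ± 83.5 and 633 ± 57.9 CPM. The share of the family's reads that came from Klra4 and Klra8 is set within a library and does not move with its total. It was 36.9 ± 0.962% in unstimulated, 35.4 ± 0.328% in YFP- and 29.3 ± 1.27% in YFP+ libraries. As a log2 ratio of activating to inhibitory sums, this was -0.86 to -0.72, -0.89 to -0.85 and -1.37 to -1.18, so that every YFP+ library was below every other. From YFP- to YFP+ the ratio moved by between -0.48 and -0.34 in libraries of the same label. Without Klra3 and Klra9, the pair with the most similar sequence among the abundant members, the mean ratio was -0.42, -0.37 and -0.64, still lowest in YFP+ cells. Klra5, which like Klra3 did not fall from YFP- to YFP+ cells, stayed in this ratio, and no ratio without it was made. The inhibitory Klra1, Klra6 and Klra7 differed between these groups by -0.95, -1.64 and -0.73, and the activating Klra4 and Klra8 by -0.77 and -0.93. The ratio therefore does not show a fall limited to the activating class.

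The shares of single inhibitory genes among the reads of all 9 genes differed between groups as well. Klra3 made up 6.48 ± 0.771% of the family's reads in unstimulated, 9.27 ± 1.23% in YFP- and 16.6 ± 2.68% in YFP+ libraries. Klra5 went from 8.10 ± 0.568% through 11.2 ± 1.58% to 16.3 ± 1.21%. A share also moves with the other members, activating ones included. The level of Klra5 itself differed by only 0.01 between YFP+ and YFP- cells (limma adjusted p = 0.98). Klra7 went the other way, from 34.1 ± 0.852% through 27.2 ± 1.30% to 23.9 ± 0.362%. For these 3 genes the order of the groups was the same in each of the 4 labels, as the plot of shares by library shows.

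**Figure D4:**
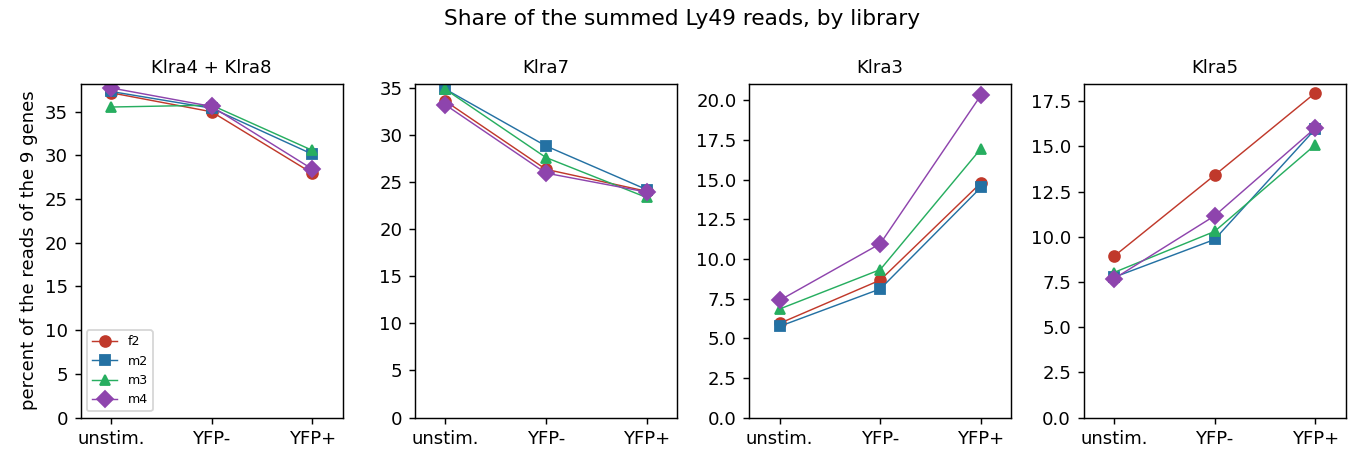
Share of the summed reads of the 9 Ly49 genes (percent, axes from 0 with a separate scale each) from the activating pair, Klra7, Klra3 and Klra5; lines join libraries that carry the same label. The activating share is lowest in YFP+ libraries at 29.3 ± 1.27%, while the Klra3 share is highest there at 16.6 ± 2.68%.

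The libraries of a group also differed in the level of the whole family. The library named m2 was the highest of its group for 7 of 9 members in all 3 groups, and m3 was the lowest for 6, 5 and 5 of 9 members in unstimulated, YFP- and YFP+ cells. Klra3 was instead highest in m4 in every group, at 84.0, 136 and 191 CPM. Ribosomal features took 27.4%, 15.9% and 16.3% of the reads in m2, and 29.2%, 30.3% and 29.8% in m3; their part in this order was not tested.

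Of the 5 Klra rows outside the 9 genes, Klra2 (Ly49B) rose from 0.432 CPM in unstimulated through 1.03 in YFP- to 2.59 CPM in YFP+ libraries, on 5 to 165 reads per library. Its log2 difference between YFP+ and unstimulated cells was 2.67 (SE 0.42, limma adjusted p = 8.9e-05), and 1.32 with a pseudocount of 1 CPM. The steps to YFP- (1.33, adjusted p = 0.017) and from YFP- to YFP+ (1.34, adjusted p = 0.036) lost the threshold with no filter and when a label was left out (f2, m2 or m4 for the former, any of the 4 for the latter), at limma adjusted p of up to 0.10 and 0.19. Klra2 lies apart from the other genes, at 131219223 to 131247362. The pseudogenes inside the cluster were lower in YFP+ than in unstimulated cells, by -1.30 for Klra11-ps (-0.60 with that pseudocount), -0.93 for Klra14-ps and -0.44 for Klra13-ps (limma adjusted p = 0.0053, 0.00011 and 0.0075); without f2 the first, and without m4 the last, lost the threshold, at adjusted p of 0.054 and 0.062. Klra14-ps, which shares stretches with Klra8, went from 50.5 through 50.9 to 26.3 CPM, and Klra8 from 133 through 143 to 75.1 CPM. Klra17 (Ly49Q), at 0.102 to 0.947 CPM, was under the filter and was not tested.

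**Figure D5:**
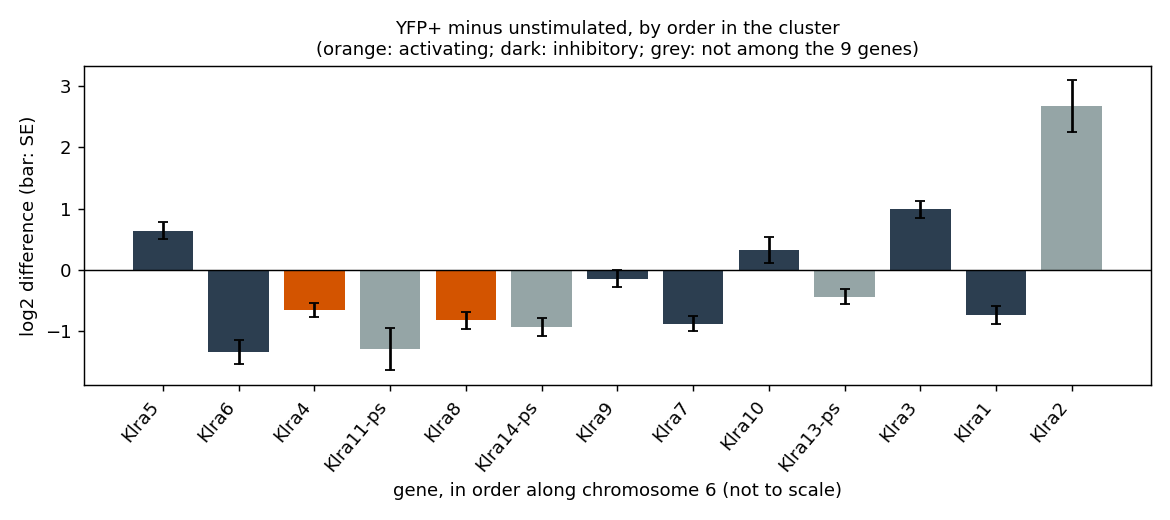
Log2 difference between YFP+ and unstimulated cells (bars from 0, error bars SE from the limma fit) for the tested Klra rows in their order along the chromosome. Klra5 and Klra3 rise near opposite ends of the cluster, by 0.64 and 0.99, between and beside genes that fall, such as Klra6 by -1.34 and Klra1 by -0.74.

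Klra3 and Klra9 moved apart in YFP+ cells although their promoters are 85.0% identical, so the bases just before both RefSeq start sites are shown. They are from GRCm38.p6, minus strand, written 5′ to 3′. Capitals mark the letters TATAAA, those of a TATA box, without regard to their distance from the start site. The first lies at chr6:130337627-130337876 and the second at chr6:130193113-130193362.
Klra3: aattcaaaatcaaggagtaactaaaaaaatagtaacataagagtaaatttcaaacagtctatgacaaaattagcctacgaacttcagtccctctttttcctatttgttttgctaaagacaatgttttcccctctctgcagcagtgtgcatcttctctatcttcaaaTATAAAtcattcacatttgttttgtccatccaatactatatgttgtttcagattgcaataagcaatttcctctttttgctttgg
Klra9: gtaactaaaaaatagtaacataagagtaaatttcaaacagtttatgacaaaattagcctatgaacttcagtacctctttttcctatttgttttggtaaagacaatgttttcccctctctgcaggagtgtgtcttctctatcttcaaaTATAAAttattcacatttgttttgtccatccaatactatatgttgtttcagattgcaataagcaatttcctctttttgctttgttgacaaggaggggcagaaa
RefSeq held a promoter for all 9 members, and 4 short motifs were searched on both strands of each. TATAAA was present in 6 of 9 (in Klra8 on the other strand), against 13.6% of all 32851 promoters. It was counted at any distance from the start site, so a match need not be a TATA box in use. Some promoters with the match are similar, at 85.0% identity for Klra3 and Klra9 and 76.0% for Klra5 and Klra6. The 6 matches are therefore not independent, and their number is no measure of enrichment. CTTTGA, the core bound by TCF factors, was present in Klra6 and Klra7, against 16% of all, and TGTGGT, the core bound by RUNX factors, in Klra1, against 16.8%. The AP-1 motif TGANTCA was in 0 of 9 and in 7.81% of all promoters. A match is a description of the letters in this window, and the activating pair, whose promoters are 86.0% identical, shared neither the TCF nor the RUNX core.

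Genes that act with the receptors were read from 4 lists, given by counts at an adjusted p under 0.05 (limma). The counts stand against the shares of all tested genes, which were 30.2% higher and 20.9% lower in YFP- against unstimulated, 3.28% and 18.5% in YFP+ against YFP-, and 27.5% and 33.3% in YFP+ against unstimulated cells. Of 13 genes of Ly49 signalling, 1 was higher and 5 lower in YFP- than in unstimulated cells, 2 higher and 4 lower in YFP+ than in YFP- cells, and 3 higher and 6 lower in YFP+ than in unstimulated cells, with medians of -0.18, -0.40 and -0.45. Without m4 the middle counts were 1 and 2, without m2 or m3 the 2 higher became 1, without m2 the 3 higher became 1, and without m3 the last median was -0.13. With centring the middle median was -0.14, and with quantile normalization the first was -0.43. Syk, a kinase that acts below DAP12, fell by 1.81 from unstimulated to YFP- (SE 0.18, limma adjusted p = 3.4e-06) and by 1.91 from YFP- to YFP+ (SE 0.18, adjusted p = 1.4e-05). Plcg2, a phospholipase of the same pathway, differed between YFP+ and unstimulated cells by -1.55, and Inpp5d, which encodes the phosphatase SHIP-1, by -1.84. The 2 genes higher in YFP+ than in YFP- cells were Lat (0.57, limma adjusted p = 0.0043) and Fyn (0.56, limma adjusted p = 0.020). They kept that call in 14 and 9 of 14 alternatives. Against unstimulated cells they were higher by 0.40 and 0.65. Ptpn6, which encodes SHP-1, was higher in YFP- than in unstimulated cells by 2.0 (SE 0.29, adjusted p = 7.2e-05). In YFP+ cells its difference from unstimulated was 0.99 (SE 0.29, limma adjusted p = 0.0083). That was past the threshold in all but the fits without m2, without m4 or without a filter, with adjusted p of up to 0.083. From YFP- to YFP+ cells Ptpn6 differed by -1.01 (SE 0.29, limma adjusted p = 0.022), a call kept in 11 of 14 alternatives.

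Classical MHC class I molecules are ligands of many inhibitory Ly49 receptors. For 7 genes of MHC class I and of the machinery that loads these molecules, the median difference between YFP+ and YFP- cells was -0.85. Of these genes 6 were lower and 0 higher, where 18.5% of all tested genes were lower. The count was 3 without m2, 3 without m4, 4 without m3 and 1 with no filter. The largest falls were those of Tap1 (-1.49, limma adjusted p = 0.014) and Tap2 (-1.28, limma adjusted p = 0.038). They kept the call in 11 and 8 of 14 alternatives. Nlrc5, the transactivator of MHC class I genes, fell by 0.85 (SE 0.18, limma adjusted p = 0.0038; 0.074 under quantile normalization). Against unstimulated cells, 2 of the 7 were higher and 1 lower in YFP- cells, and 0 higher and 4 lower in YFP+ cells; the first count was 0 without m2 or with no filter and 1 without f2 or m4, and the last was 1 without m4 or with no filter. H2-D1, a classical class I gene, differed by -0.50 between YFP+ and unstimulated cells (SE 0.14, limma adjusted p = 0.0062). That call was lost without m4 and with no filter, at adjusted p of up to 0.29. The 2 genes higher in YFP- than in unstimulated cells were H2-K1, the other classical class I gene listed, and Tapbp. They differed by 0.55 and 1.19 (limma adjusted p = 0.0071 and 0.041) and kept the call in 12 and 9 of 14 alternatives. The 1 lower was Nlrc5, by -1.69.

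Of 17 other lectin-like genes of the natural killer complex, the region that holds the Ly49 cluster, 16 were tested. In YFP- against unstimulated cells 7 were higher and 4 lower, in YFP+ against YFP- cells 0 were higher and 12 lower, and in YFP+ against unstimulated cells 4 were higher and 9 lower, with medians of 0.38, -0.89 and -0.87. The 12 lower became 8 without m4 and 9 under centring or TMM scaling, and the 4 higher became 2 without f2, without m2 or with no filter. The largest falls from YFP- to YFP+ were those of Klrb1c (-3.59), Klrb1b (-3.23) and Klrb1f (-2.89), all past the limma threshold. The early activation gene Cd69 rose by 1.63 in YFP- cells (SE 0.17, adjusted p = 5.1e-06). Of 15 genes of NK cell maturation, 14 were tested, with 5 higher and 4 lower, 0 and 8, and 3 and 9 in the same order, and medians of 0.07, -0.70 and -1.30. The first of these medians was negative under all 4 other scalings, between -0.11 and -0.04, and was -0.10 without m2, 0.01 without m3, 0.12 without f2 and 0.26 without m4. Tcf7, which encodes TCF-1, a factor needed for normal expression of Ly49A, fell by 2.80 from YFP- to YFP+ (SE 0.21, limma adjusted p = 3.2e-06). Zeb2, a regulator of terminal NK maturation, was higher by 2.89 in YFP- and by 2.72 in YFP+ than in unstimulated cells (SE 0.17 each, limma adjusted p = 4.7e-08 and 2.7e-08).

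Of 8215 protein-coding genes outside the Klra family with a mean log2 CPM of at least 2, those whose level followed the summed Ly49 level most closely over the 12 libraries were Vrk2 (Pearson r = 0.95), Parp8 (0.94), mt-Nd6 (0.94), Klrb1f (0.93) and Vps72 (0.93). These values describe the libraries, which share group and depth, and carry no test. Klrb1f, also a natural killer complex gene, went from 68.2 through 118 to 16.5 CPM, and Vrk2 from 12.6 through 13.5 to 7.10 CPM.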

How the data were processed

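The deposited values are moderated log2 CPM (log2 of the reads, plus a small prior, scaled to the library total), in 1 table with Ensembl identifiers and gene symbols, per the file headers. Libraries came from 10 ng of RNA by the SMARTer Ultra Low method and were read as pairs of 150 bases, per the labels' protocols. bcl2fastq, STAR 2.7.9a, Subread and featureCounts 2.0.3 and the build GRCm38 are named in the submitters' processing notes; the annotation, the strand setting and the treatment of reads that fit several genes are not given in the sources used here. Of 55774 lines, 287 repeats were dropped. Every value (100%) gave a whole number of reads, within 0.1 read, at a prior of 0.5 reads, and CPM here means these reads over the library total.

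The filter on low values asked for a log2 CPM above 0 in 4 or more samples. The 12 samples were fitted together in limma 3.58.1 (R 4.3.3) with 1 coefficient per group and an intensity trend, and Benjamini-Hochberg adjusted p under 0.05 was the threshold for a call. On simulated reads with 200 genes changed 2-fold between YFP+ and YFP-, 180 were called, with 6 unchanged genes, of 12097 tested. The simulation gave all genes the same relative spread, raised and lowered equal numbers of genes and held no other group effect. These counts therefore check the code and do not measure error rates in the real libraries. Sequence tables were made in Python 3.11.15 with Biopython 1.88; gene positions come from GENCODE M21 and promoters from RefSeq.

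The members, the lists and the rules were chosen with earlier results of these data known. Named are all members, the other Klra rows, Klrb1c and Ifng, from each list at most the 3 called genes with the largest difference per direction and comparison, and the 5 genes most like the family sum. The alternatives, 14 in all, were the replicate block, only the 8 samples compared, no filter, a stricter filter (log2 CPM above 2), a pseudocount (1 CPM), centring, quantile normalization, TMM scaling, totals without 359 rRNA-like features (ribosomal biotypes, Lars2, Mir6236 and Gm23935), no trend, and leaving out each label. The counts of list genes and the median of the members under them were added after seeing the data.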

Additional observations from a re-analysis of the deposited data

Results flagged for a closer look

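Klra6 in YFP- cells stood out for the library m2, at 16.7 CPM against 10.8 to 11.5 CPM in f2, m3 and m4. The gap to the nearest library was 0.867 of the range of the 4 values. Of 30 sets of 4 values examined in this way 1 exceeded the limit, where about 1 in 20, or 1.5 sets, would by chance. Klra6 was lower in YFP+ than in YFP- cells past the limma threshold also without m2.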

How the results depend on the processing

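All 3, 6 and 7 calls of members in YFP- against unstimulated, YFP+ against YFP- and YFP+ against unstimulated cells kept their direction and side of the threshold under the 14 alternatives, and of 375 values 351 did so. Differences changed sign in 14 cases, all in results not past the threshold. For YFP- against unstimulated these were Klra4 (-0.019 centred, -0.12 quantile, -0.062 without ribosomal features), Klra8 (-0.037 centred, -0.13 quantile, -0.0094 TMM, -0.080 without ribosomal features) and Klra1 (-0.0083 quantile). For YFP+ against YFP- they were Klra5 (-0.0033 without ribosomal features, -0.024 without m2, and from -0.032 without m4 to 0.065 without f2 when a label was left out) and Klra10 (0.12 centred, 0.21 quantile, 0.046 TMM). The count of all genes called in YFP+ against YFP- cells went from 2691 to 1583 with no filter, where 55487 features were tested, and to between 1571 (without m2) and 2178 when a label was left out, with 1643 without m4. In YFP- against unstimulated cells 3735 genes were higher and 2586 lower, and 3070 and 3439 with ribosomal features left out. The median of all genes in YFP+ against YFP- moved from -0.19 to 0.07 with centring, 0.06 with quantile normalization and 0.00 with TMM. The activating to inhibitory log2 ratio for unstimulated, YFP- and YFP+ cells went from -0.77, -0.87 and -1.27 to -0.42, -0.37 and -0.64 without Klra3 and Klra9, and to 2.19, 1.91 and 1.61 as a difference of mean logs, which weights the scarce Klra6 and Klra10 like the others; apart from these constructions the cause was not tested. Whether libraries with the same label are paired is not stated in the labels; correlations of their deviations ran from -0.06 to 0.38, and 2 of 12 libraries were closest to their own label in both other groups, so they were fitted as unpaired. With the replicate block 6682, 3098 and 7774 genes were called in YFP- against unstimulated, YFP+ against YFP- and YFP+ against unstimulated cells, in place of 6321, 2691 and 7522, and no member changed its call. At a filter of log2 CPM above 2 Klra10 was not tested. An edgeR count model on the recovered reads was planned and was not run. Counts limit Klra10, at 55 to 152 reads per library, most among the members.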
